A study of Mus musculus with 2 samples.

Results

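Mediator is the multi-subunit coactivator that carries signals from DNA-bound transcription factors to RNA polymerase II. The genes of this complex were taken as the rows of the deposited read count table whose symbol is Med followed by a number and at most 1 letter, together with the kinase genes Cdk8 and Cdk19 and the cyclin gene Ccnc. The rule found 33 of 24061 rows, 30 with a Med symbol and 3 without, and all 33 had at least 20 counts summed over both libraries, the minimum set for measuring a ratio. The lowest sum was 160 counts.

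The core of Mediator is built from a head and a middle module, which touch the polymerase, and a tail, which receives many activators, held together by the scaffold subunit MED14. A separable kinase module of CDK8 or CDK19, cyclin C, MED12 and MED13 docks on the core and blocks polymerase binding while attached. In embryonic stem cells Mediator is known for its dense occupancy of the enhancers of pluripotency genes. PC4, the product of Sub1, is a single-stranded DNA-binding coactivator purified from a nuclear fraction that also held a form of Mediator.

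The cells were C57BL/6 mouse embryonic stem cells grown over embryonic fibroblast feeders with 1000 U/ml leukaemia inhibitory factor and 20% serum replacement. The control library came from cells at passages 17 to 23. The other came from cells labelled as overexpressing Pc4, at passages 24 to 37, derived from YFP-positive colonies picked after infection with a Venus lentivirus, which means that passage cannot be told apart from the label. Per the design text 3 such lines were made, and which of them gave the library, and whether feeder cells were depleted first, is not given in the sources used here. With 1 library per group there was no replicate check, and every comparison below is between 2 libraries.

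Polyadenylated RNA gave 10571463 counts in the control library and 10194783 in the library labelled Pc4-OE. Sub1, the targeted gene, went against its label, at 5522 counts under the label control and 2432 under the label Pc4-OE, 2.26-fold lower (counting interval 2.15 to 2.37). All directions below are therefore those of the labels. Were the labels exchanged, every direction would turn, and whether they are was not tested. The stem cell markers were present in both libraries, none of 8 being at 0. Their summed level was 5593 CPM (counts per 1000000, on TMM-scaled library sizes) in the control library and 4432 CPM in the other. They were divided, with 3 of 8 above a ratio of 1 (median log2 ratio -0.13). Counting intervals lay below 1 for 4, among them Pou5f1 (-0.93) and Tdgf1 (-0.69), and above 1 for 2, Nanog (0.24) and Dppa5a (0.07). Of 23 embryonic fibroblast markers 23 had a ratio of Pc4-OE to control above 1 (median log2 ratio 1.29, summed level 5189 and 13420 CPM), as did 16 of 16 macrophage markers (summed level 225.7 and 640.0 CPM). None of these markers was at 0 in either library. Of the measured markers of other lineages, 5 of 5 for trophoblast and 2 of 3 for neuroectoderm had a ratio above 1. Their part in the Mediator values was not tested, and in bulk RNA fewer cells of a type and less RNA per cell cannot be told apart.

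As a group, Mediator transcripts were modestly lower in the library labelled Pc4-OE. Of the 33 genes, 28 (84.8%) had a ratio below 1, against 50.7% of all 14213 measured genes and 53.4% of those with at least 100 counts. The median log2 ratio was -0.32 (order-statistic interval across the genes -0.48 to -0.21), beside -0.01 for all measured genes and -0.05 for genes with at least 100 counts. The summed level of the 33 genes was 2007 CPM in the control library and 1679 CPM in the other. The 95% counting interval of the ratio, an exact binomial interval of the 2 counts that covers counting error only, lay below 1 for 22 genes and above 1 for 3, where 33.1% and 31.2% of measured genes did so.

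The differences were small in size. None of the 33 genes met a 2-fold rule (a ratio of at least 2 either way with an interval that excludes 1), which 4.02% of measured genes met as lower and 11.8% as higher. Under the same rule at 1.5-fold, 5 genes were lower (Med30, Med28, Cdk8, Med22 and Med27) and 1 was higher (Med12l). Among all measured genes 13.2% were lower and 18.8% higher by that rule, so the count of 5 in 33 was close to that background. The interval of 18 of the 33 genes held the median of the group.

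**Figure D1:**
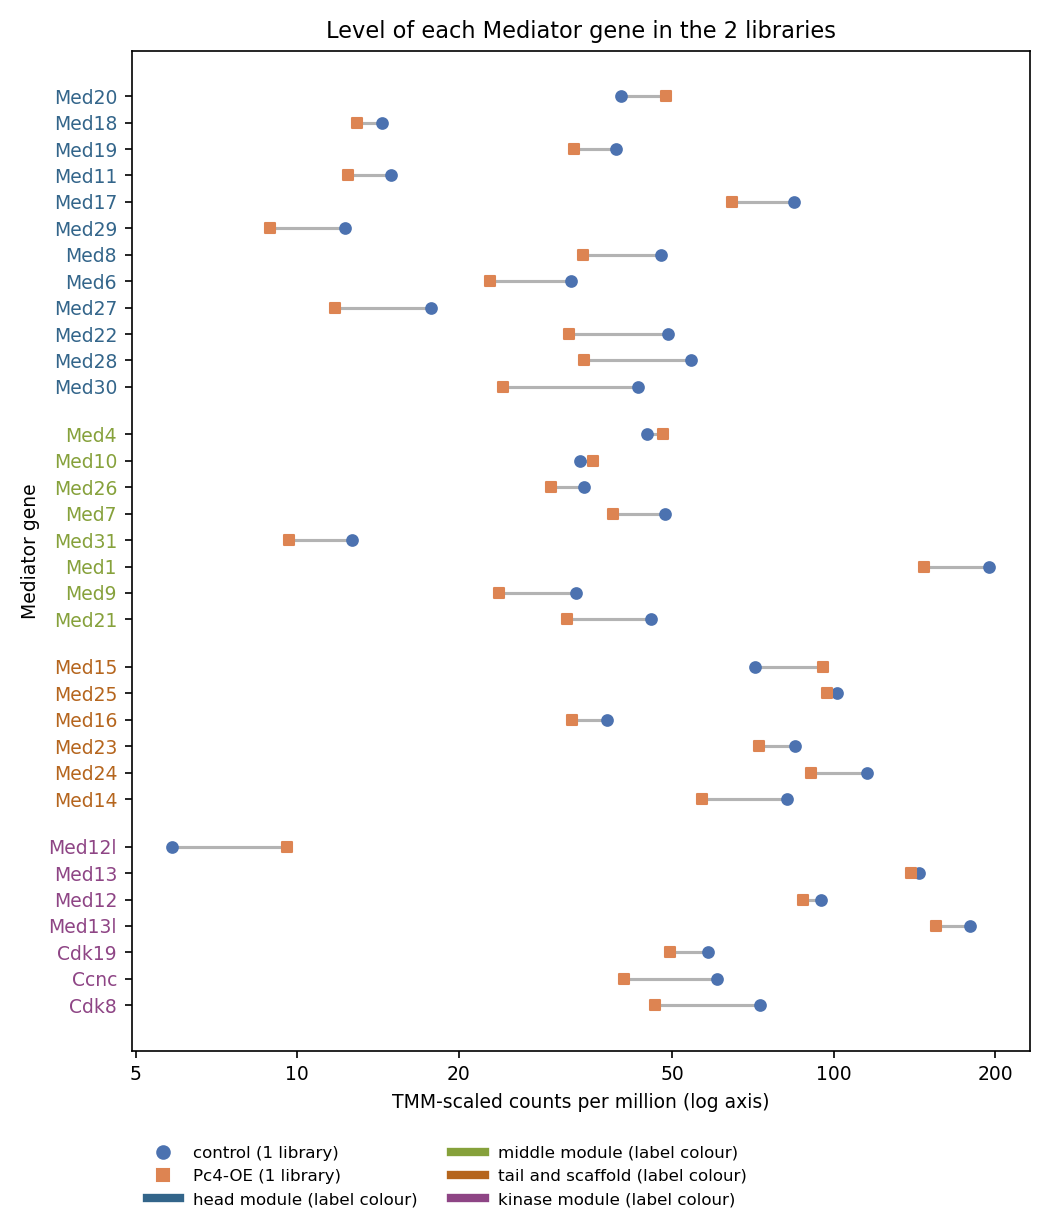
TMM-scaled CPM of the 33 Mediator genes on a log axis, with circles for the control library and squares for the library labelled Pc4-OE (1 library each), ordered within modules by ratio. The square lies left of the circle for 28 genes, and Med12l, the lowest gene, is one of 5 with the square on the right.

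**Figure D2:**
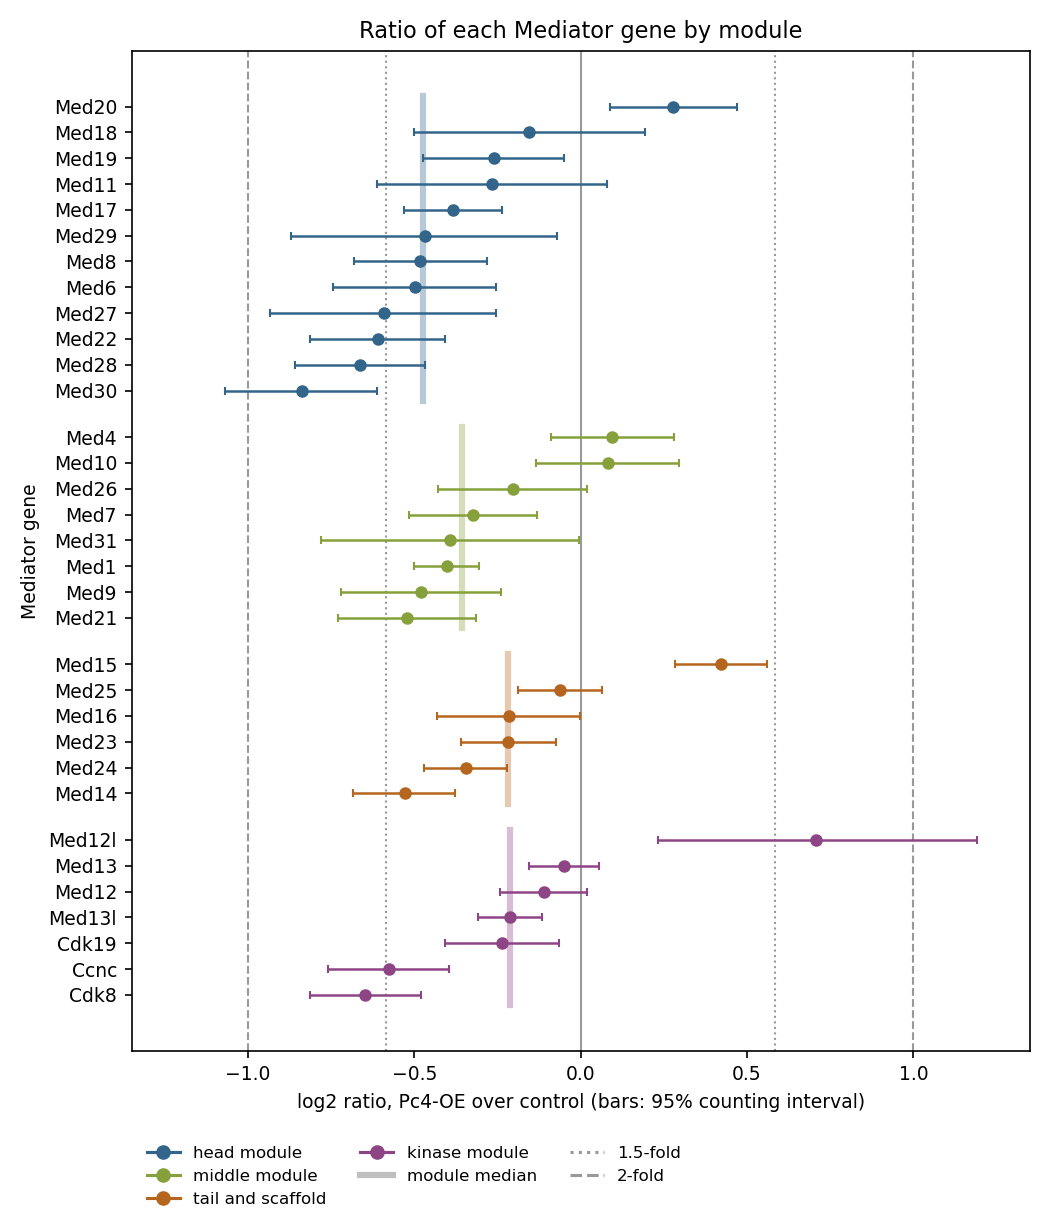
The log2 ratio of Pc4-OE over control for each Mediator gene with its 95% counting interval, by module, with module medians as thick bars and the 1.5-fold and 2-fold limits as dotted and dashed lines. The head median lies at -0.47, the middle at -0.36, the tail at -0.22 and the kinase module at -0.21, and no point passes a 2-fold limit.

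The head module, which contacts the polymerase and the general initiation factors, had the lowest median, -0.47 over 12 genes. Its order-statistic interval across the genes, -0.61 to -0.26, holds the median of the middle module (-0.36). That interval describes genes that share both libraries and does not measure the spread between cultures. Of these, 11 had a ratio below 1 (50.7% of measured genes did) and 4 met the 1.5-fold rule as lower (13.2% did). Med30, a metazoan head subunit, had the lowest ratio of all 33 genes: 450 counts (43.2 CPM) in the control library and 250 (24.2 CPM) in the other, 1.79-fold lower (interval 1.53 to 2.10). Med30 lies at chromosome 15, 52712445 to 52730431 (GRCm38), within the first part of that chromosome, where 105 of 129 genes were lower and the median log2 ratio was -0.68. The 20 nearest genes around it had a median of -0.91, against -0.84 for Med30 itself, so its deficit was about that of its neighbours.

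Med28, another metazoan subunit of the head, was at 54.2 and 34.2 CPM (564 and 354 counts), 1.58-fold lower (1.38 to 1.81). It lies on chromosome 5, whose median was -0.33 over 754 genes, yet its 20 nearest neighbours had a median of -0.02. Med22, which pairs with MED11 in the head, had 49.1 and 32.2 CPM (511 and 333 counts), 1.53-fold lower (1.33 to 1.76). Med27, which is counted here with the head and contacts the tail, stood at 17.8 and 11.8 CPM (185 and 122 counts), 1.51-fold lower (1.19 to 1.91). Both sit close to the limit: on library totals neither met the 1.5-fold rule, with log2 ratios of -0.57 for Med22 and -0.55 for Med27, and Med27 also missed it with a pseudocount of 0.5 CPM (-0.57).

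Med6 and Med8, conserved head subunits, had log2 ratios of -0.50 and -0.48, with intervals below 1. Med6 went from 32.4 to 22.9 CPM and Med8 from 47.6 to 34.1 CPM. Med17, the central scaffold of the head and a target of several activators, stood at 84.4 and 64.7 CPM, with a log2 ratio of -0.38 (-0.53 to -0.24). Med29 (12.3 and 8.89 CPM, log2 ratio -0.47) and Med19 (39.4 and 32.9 CPM, -0.26) also had intervals below 1. Exons of Med19 are overlapped by those of Tmx2 and Zdhhc5 on the other strand.

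For Med11 and Med18 the difference was within counting error. Med11 had 156 and 129 counts with a log2 ratio of -0.27 (-0.61 to 0.08), and Med18, which forms a movable jaw with MED20, had 150 and 134 counts with -0.15 (-0.50 to 0.19). Med20 was the only head gene above a ratio of 1, with 419 and 505 counts (40.2 and 48.8 CPM) and a log2 ratio of 0.28 (0.09 to 0.47). The annotated exons of Med20 overlap a processed pseudogene, Kpna2-ps, over 21.4% of their bases on the opposite strand, and the strand setting of the counting is not given in the sources used here. The partners Med18 and Med20 thus lay on opposite sides of 1, with intervals that overlapped.

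The middle module links the head to the tail and to the kinase module. Its median was -0.36 over 8 genes (range -0.52 to 0.10), with 6 below a ratio of 1 and none past the 1.5-fold rule. Among all measured genes 50.7% were below 1, and 13.2% were lower and 18.8% higher by that rule. Med1, the subunit that binds nuclear receptors, was the most counted gene of the complex in the control library, with 2029 counts (194.9 CPM) in the control library and 1525 (147.3 CPM) in the library labelled Pc4-OE, where Med13l had more (1607 counts). Its log2 ratio of -0.40 (-0.50 to -0.31) is among the most precise of the set.

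Med21 and Med7 form the hinge of the middle module. Med21 had the lowest ratio there, 45.6 and 31.8 CPM with a log2 ratio of -0.52 (-0.73 to -0.32), and Med7 stood at 48.6 and 38.8 CPM with -0.32 (-0.52 to -0.13). Med9 was at 33.1 and 23.8 CPM (log2 ratio -0.48). Med31, the small subunit conserved from yeast to mammals, had only 132 and 100 counts and a log2 ratio of -0.39 (-0.78 to -0.01). Med26, which recruits elongation factors to the complex, had 357 and 308 counts and an interval that held 1 (-0.20, -0.43 to 0.02).

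Med4 and Med10, further middle subunits, were level between the libraries within counting error. Med4 had the highest ratio of the module, at 44.9 and 48.0 CPM (468 and 497 counts) with a log2 ratio of 0.10 (-0.09 to 0.28). Its 20 nearest genes on chromosome 14 had a median of 0.84, the highest neighbourhood value of the 33. Med10 was at 33.7 and 35.7 CPM (0.08, -0.13 to 0.30). A long noncoding RNA annotated on the other strand, Gm26819, covers 92.8% of the exonic bases of Med10.

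The tail and the scaffold, which receive activators, had a median of -0.22 over 6 genes (range -0.53 to 0.42). Of these, 5 were below a ratio of 1 (50.7% of measured genes were). Med14, the scaffold that spans all core modules, had the lowest ratio of this group: 854 and 588 counts (82.0 and 56.8 CPM), 1.44-fold lower (1.30 to 1.61). Its 20 neighbours on the X chromosome had a median of 0.11, in the opposite direction. Med24 was at 115.2 and 90.7 CPM with a log2 ratio of -0.35 (-0.47 to -0.22).

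Med23, which binds the ERK-responsive factor ELK1, was at 84.6 and 72.8 CPM with a log2 ratio of -0.22 (-0.36 to -0.08). Med16, a tail subunit that contacts the antioxidant factor NRF2, was at 37.8 and 32.6 CPM (-0.22, -0.43 to -0.003). Med25, the target of the viral activator VP16, was nearly level at 101.5 and 97.3 CPM (-0.06, -0.19 to 0.06).

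Med15 stood apart from the other tail genes. Its protein binds SREBP and SMAD factors through a KIX domain. It had 744 counts (71.5 CPM) in the control library and 991 (95.7 CPM) in the one labelled Pc4-OE, a value 1.34-fold higher (1.22 to 1.48), the highest ratio of the 26 core genes. Within this module Med15 and Med14 thus lay 0.42 above and 0.53 below a log2 ratio of 0, and their counting intervals were far from overlapping.

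The kinase module had a median log2 ratio of -0.21 over 7 genes (range -0.65 to 0.71). The catalytic subunit gene Cdk8 and its cyclin partner gene Ccnc were the lowest pair. Cdk8 had 758 and 481 counts (72.8 and 46.5 CPM), 1.57-fold lower (1.40 to 1.76). Ccnc had 632 and 421 counts (60.7 and 40.7 CPM), 1.49-fold lower (1.32 to 1.69). With the size factors of DESeq2 the log2 ratio of Ccnc was -0.59, just past the 1.5-fold limit that it missed at -0.58. Cdk8 lies on chromosome 5, at 146230795 to 146302874, where its 20 nearest genes had a median of -0.66, close to its own -0.65. The 20 neighbours of Ccnc, on chromosome 4 at 21727701 to 21759922, had a median of 0.10. Exons of Ccnc share 5.40% of their bases with Tstd3 on the other strand, which had 212 and 127 counts (log2 ratio -0.73).

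Cdk19, the vertebrate paralog that can take the place of CDK8, was closer to level: 608 and 513 counts (58.4 and 49.6 CPM), with a log2 ratio of -0.24 (-0.41 to -0.06). Cdk19 made up 44.5% of the reads of the pair in the control library (exact binomial interval 41.9% to 47.2%) and 51.6% in the library labelled Pc4-OE (48.5% to 54.8%). These intervals cover counting error only and do not overlap. The 20 nearest genes had a median log2 ratio of -0.20 for Cdk19 and -0.66 for Cdk8, each close to the gene's own. What part of the change in share goes with position was not tested. Per kilobase of the longest coding transcript (2973 bases for Cdk8, 5807 for Cdk19), the share of Cdk19 was 29.1% and 35.3%. All annotated exons together run the other way, with 9832 bases for Cdk8 and 5846 for Cdk19. The annotation used for counting is not given, so which transcript of the pair was more abundant is not settled.

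Of the large subunits that hold the kinase to the core, Med12 and Med13 had intervals that held a ratio of 1, and that of Med13l lay below it. Med12, which activates the kinase, had 987 and 908 counts (94.8 and 87.7 CPM) and a log2 ratio of -0.11 (-0.24 to 0.02). Med13, the link between kinase and core, had 1502 and 1441 counts (144.2 and 139.2 CPM) and -0.05 (-0.16 to 0.05). Med13l, its paralog, had 1874 and 1607 counts (180.0 and 155.3 CPM) and a log2 ratio of -0.21 (-0.31 to -0.12). Med13l lies on chromosome 5, and its 20 neighbours had a median of -0.24. The Med13l share of the reads of its pair was 55.5% (53.8% to 57.2%) and 52.7% (50.9% to 54.5%), so the paralogs were about equally counted in both libraries.

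Med12l, the paralog of Med12, was the gene with the fewest counts and the highest ratio. It had 61 counts (5.86 CPM) in the control library and 99 (9.57 CPM) in the other, 1.63-fold higher (1.18 to 2.28), and its share of the pair was 5.82% (4.48% to 7.41%) and 9.83% (8.06% to 11.8%). Of its annotated exonic bases 17.3% overlap other genes on the opposite strand, among them Igsf10, an immunoglobulin superfamily gene, and P2ry12, a purine receptor gene. Igsf10 had 861 counts in the control library and 2254 in the other (log2 ratio 1.40), far more reads than Med12l, while P2ry12 was at 0 in both. The 20 nearest genes of Med12l, on chromosome 3, had a median log2 ratio of 0.41, with 7 of them below a ratio of 1. The part of reads from Igsf10 in the Med12l value, and the part shared with its neighbours, were not tested.

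**Figure D3:**
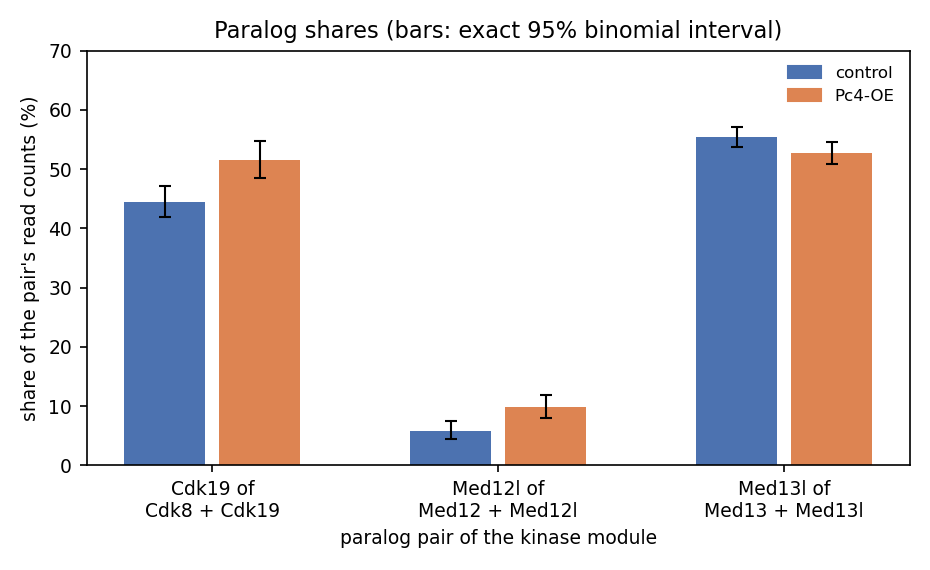
Share of each paralog pair's read counts, in percent, taken by Cdk19, Med12l and Med13l in the control library and the library labelled Pc4-OE, with exact 95% binomial intervals for counting error. The Cdk19 bar goes from 44.5% to 51.6% and the Med12l bar from 5.82% to 9.83%, while the Med13l bars of 55.5% and 52.7% have intervals that overlap.

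Levels were also compared between genes, as CPM per kilobase of the longest GENCODE M21 coding transcript, averaged over both libraries. On that scale Med21 had the highest value (56.0 in the control library and 39.1 in the other), followed by Med10 (36.9 and 39.0), Med4 (33.8 and 36.2) and Med30 (42.9 and 24.0). The order depends on the length chosen. Med21 was divided by 814 bases and Med10 by 913, while all their annotated exons cover 3523 and 4491 bases. The annotation used for counting is not given. The order of the leading genes differed between the libraries, Med21 being first in the control library and level with Med10 in the other. Leaving out Med12l (0.53 and 0.87), the lowest gene was Med18 (8.60 and 7.73). Apart from Med12l the means thus ran from 8.16 to 47.5.

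Position was examined because blocks of neighbouring genes were shifted between these libraries. Of the 33 genes, 4 lie on chromosome 5 (Med28, Med13l and Cdk8) or in the first part of chromosome 15 (Med30), and all 4 were below a ratio of 1. Only these lowered regions were left out below. Chromosome 14, which holds Med4, was kept, though its median was 0.16 and 37.0% of its 403 well-expressed genes were below 1. Without the 4 genes, 24 of 29 were below 1 (50.7% of measured genes were) and the median log2 ratio was -0.27. The 1.5-fold rule was then met by 3 genes (Med22, Med27 and Med12l) in place of 6. The median became -0.11 for the kinase module and -0.43 for the head, and stayed at -0.36 for the middle and -0.22 for the tail. Set against the 20 nearest well-expressed genes, 24 of 33 Mediator genes had a lower ratio than the median of their neighbours, and the median of that difference was -0.23 on the log2 scale. Of 11550 well-expressed genes on chromosomes with at least 100 of them, 49.9% were below the median of their neighbours. Across the 33 genes the log2 ratio had a Pearson r of 0.41 with the neighbours' median (0.33 without Med12l). On ranks the relation was weaker, with a Spearman rho of 0.155 (0.074 without Med12l). Both are descriptions over genes that share both libraries. What part of each ratio is shared with its neighbours was not tested.

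Read sharing with overlapping genes was examined too. In GENCODE M21, 18 of the 33 genes have an exon that overlaps an exon of another gene, and 15 have none. The largest overlaps on the opposite strand lay on both sides of a ratio of 1. Med10 (92.8% of exonic bases), Med20 (21.4%) and Med12l (17.3%) were above it, and Med31 (26.3%), Med7 (21.2%) and Med21 (15.5%) below. Among the 15 genes with none, a set chosen after the values were seen, 14 were below 1 (50.7% of measured genes were). Their median log2 ratio was -0.48, lower than the -0.32 of all 33. The exception was Med4. The 15 genes include Med30, Med28 and Cdk8, which lie on chromosome 5 or in the first part of chromosome 15, so the sets differ in position too.

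Upstream sequences are shown for 3 genes that differ in direction and for which the window before the start holds no annotated exon: Med15, the highest of the core, and Med28 and Ccnc, both lower. They are the 250 bases before the start site in the RefSeq table of GRCm38.p6, 5′ to 3′ on the strand of the gene, at chr16:17722948-17723197 (minus strand) for Med15, chr5:45519979-45520228 (plus) for Med28 and chr4:21727451-21727700 (plus) for Ccnc. Capitals mark the GC box GGGCGG, the CCAAT box CCAAT and the TATA box TATAAA on either strand; adjoining matches run together.
Med15: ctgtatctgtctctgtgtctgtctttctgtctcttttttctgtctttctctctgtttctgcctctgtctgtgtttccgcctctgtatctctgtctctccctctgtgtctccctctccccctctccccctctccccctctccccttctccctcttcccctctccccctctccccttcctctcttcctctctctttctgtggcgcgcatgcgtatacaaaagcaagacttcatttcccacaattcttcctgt
Med28: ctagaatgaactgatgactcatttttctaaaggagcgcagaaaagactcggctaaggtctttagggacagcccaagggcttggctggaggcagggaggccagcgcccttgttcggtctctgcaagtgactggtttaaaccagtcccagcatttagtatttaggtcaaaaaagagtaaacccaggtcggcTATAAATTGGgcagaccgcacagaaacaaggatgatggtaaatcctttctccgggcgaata
Ccnc: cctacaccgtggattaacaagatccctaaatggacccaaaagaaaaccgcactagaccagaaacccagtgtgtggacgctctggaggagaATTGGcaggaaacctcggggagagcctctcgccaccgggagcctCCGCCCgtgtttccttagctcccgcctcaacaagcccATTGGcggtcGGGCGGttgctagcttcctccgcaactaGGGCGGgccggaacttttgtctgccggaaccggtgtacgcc

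The windows of these 3 genes differed in composition. That of Med15 is a tract of pyrimidines (82.8% C or T) with 4 CpG dinucleotides and, in the window printed, none of the 5 motifs searched, that of Ccnc has 18 CpG, 3 GC boxes and 2 CCAAT boxes, and that of Med28 has 8 CpG and a TATA box joined to a CCAAT box. Over the 28 Mediator genes with a window in the table, 19 (67.9%) held a GC box, 11 (39.3%) a CCAAT box and 3 (10.7%) a TATA box. Of 11225 measured genes with a window, 63.5%, 40.5% and 8.16% did so. The ETS motif CCGGAAG was in 6 (21.4%, against 14.7%), counting Med15, for which the table lists another start whose window holds it, and the E-box CACGTG in 2 (7.14%, against 9.89%). The Mediator windows thus had a motif content near that of other measured genes.

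The genes that work with Mediator were set beside it. All 13 subunit genes of RNA polymerase II had a ratio below 1 (median log2 ratio -0.42), where 50.7% of measured genes did so. By the 1.5-fold rule 6 were lower (13.2% of measured genes were) and by the 2-fold rule 1 (4.02%). The largest subunits, Polr2a (-0.72) and Polr2b (-0.85, on chromosome 5), were among the 6, as were Polr2d (-0.85) and the small subunit gene Polr2k (72 and 30 counts, -1.25, in the first part of chromosome 15), which met the 2-fold rule. Of 14 genes of Integrator, which cleaves nascent RNA of the same polymerase, 14 were below 1 (median -0.33) and 3 met the 1.5-fold rule as lower: Ints7 (-0.75), Ints5 (-0.65) and Ints12 (-0.63). Whether these lists differ from Mediator was not tested.

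Among 9 other kinases and cyclins of transcription, 7 were below a ratio of 1 (50.7% of measured genes were) and the median was -0.21. Cdk12, which phosphorylates the polymerase tail during elongation, was the only one past the 1.5-fold rule (2017 and 1274 counts, log2 ratio -0.65), while the initiation kinase Cdk7 was at -0.37. Of 24 pausing and elongation factors, 18 were below 1 (median -0.25) and 5 met the 1.5-fold rule as lower, with 0 higher. Among all measured genes 13.2% were lower and 18.8% higher by that rule. The counting interval lay below 1 for 14 of the 24 and above 1 for 5, where 33.1% and 31.2% of measured genes did so. Larp7, which stabilises the 7SK RNA, was at -0.70, the PAF complex genes Rtf1 and Cdc73 at -0.65 each and the pausing factor gene Nelfa at -0.63 (on chromosome 5).

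Activators and coactivators known to contact Mediator lay on both sides of a ratio of 1. Of 26 measured genes, 12 were below 1 (50.7% of all measured genes were) and the median was 0.02. By the 2-fold rule 3 were higher (6 by the 1.5-fold rule), and 1 was lower by the 1.5-fold rule. Among all measured genes 11.8% were higher by the 2-fold rule, and 18.8% were higher and 13.2% lower by the 1.5-fold rule, so the counts of higher genes were close to the background. Nr3c1, the glucocorticoid receptor, went from 388 to 971 counts (log2 ratio 1.33) and Vdr, the vitamin D receptor, from 28 to 67 (1.27). Hif1a, the hypoxia factor, was at 0.75 and Trp53, which encodes p53, at -0.74 (3667 and 2176 counts). Fbxw7, the ubiquitin ligase subunit that targets MED13, was at -0.57, and the cohesin loader Nipbl, in the first part of chromosome 15, at -0.43. Nr3c1 and Vdr lay in the direction of the fibroblast markers (median 1.29), whose part was not tested.

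Immediate early genes, some of which depend on MED23 and ELK1, were divided. Of 10 genes, 5 were below a ratio of 1 (50.7% of measured genes were). By the 1.5-fold rule 3 were higher (18.8% of measured genes were), with 0 lower and a median of 0.11. The AP-1 genes Jun (770 and 1608 counts, log2 ratio 1.07) and Junb (821 and 1684, 1.05) met the 2-fold rule. Ier3 was at 0.61 and Fos at 0.49, whereas Egr1, a classic ELK1 target, was at -0.31 (5754 and 4610 counts).

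**Figure D4:**
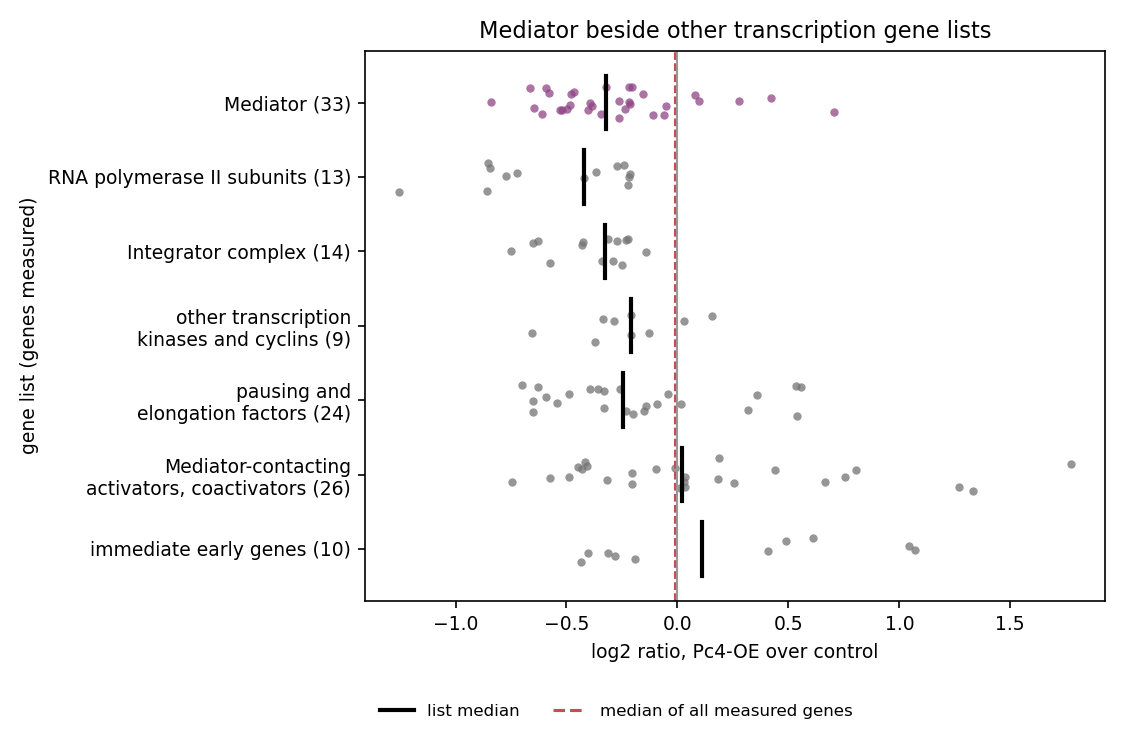
Each point is the log2 ratio of Pc4-OE over control of 1 gene, for the 33 Mediator genes and 6 other lists of transcription genes, spread vertically at random for legibility; black bars are list medians and the dashed line is the median of all measured genes (-0.01). The points of the polymerase and Integrator lists all lie left of 0, 28 of 33 Mediator points do so, and the activators (median 0.02) and immediate early genes (0.11) lie on both sides.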

How the data were processed

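Read counts per gene, deposited as whole numbers, were made by the authors with STAR 2.4.1c and featureCounts on mm10, per the submitters' processing notes; the sources used here do not give annotation, strand setting or the handling of multi-mapping reads. Intervals cover counting error only. Library sizes were scaled by TMM, the trimmed mean of M values, in edgeR 4.0.16, and ratios used no pseudocount and a minimum of 20 summed counts. No p-value was computed, since each group has 1 library. Alternatives were library totals, DESeq2 1.42.0 size factors, upper-quartile scaling, a pseudocount of 0.5 CPM, other count minimums and intervals widened by a biological coefficient of variation of 0.4. All 33 Mediator genes are named. Full values go to those past the 1.5-fold rule, module extremes, paralogs and Ccnc, and up to 4 genes per other list are named by the interval bound nearest to 1. Fbxw7, Nipbl, Egr1 and genes overlapping a member were added after their values were seen. Members and lists were chosen with earlier results of these data known. Positions came from RefSeq GRCm38.p6, by gene ID (99.7% of rows matched). Neighbours are 10 genes on each side with a mean of at least 5 CPM. Chromosome 15 was divided where 2 means fit best. Steps were tested on simulated data.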

Additional observations from a re-analysis of the deposited data

How the results depend on the processing

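The median log2 ratio of the 33 genes was -0.28 on library totals, -0.33 with DESeq2 size factors and with upper-quartile scaling, and -0.32 with a pseudocount; 28 genes lay below a ratio of 1 and 0 met the 2-fold rule under each of these. Another scaling moved the median of all genes by less than 0.1. Genes past the 1.5-fold rule numbered 6, and between 4 and 7 across those settings. With intervals widened by a biological coefficient of variation of 0.4, 0 met it, which follows from the wider intervals. Without chromosome 5 and the first part of chromosome 15, 3 did, since Med30, Med28 and Cdk8, which met the rule, lie there. Among the 15 genes free of exon overlap, an alternative added after seeing the data, 14 lay below 1 with a median of -0.48, and the cause was not tested. The 15 include Med30, Med28 and Cdk8, so position differs between the sets too. Per kilobase of transcript the shares were 29.1% and 35.3% for Cdk19, 3.75% and 6.43% for Med12l, and 58.6% and 55.9% for Med13l (control, then Pc4-OE), which follows from the transcript lengths. The direction of each of the 33 genes was the same under the 3 other scalings and the pseudocount. With 1 library per group, no setting measures the spread between cultures. No paired analysis was possible because each group has 1 library.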

Other observations

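Across the 33 Mediator genes, the log2 ratio of Pc4-OE over control had a Pearson r of 0.27 with log2 transcript length and of -0.31 with the mean level per kilobase. Without Med12l, the longest and least abundant transcript, the values over 32 genes were 0.12 and 0.19. With the median of the 20 neighbouring genes the r was 0.41 over 33 genes and 0.33 over 32. On ranks, Spearman rho over 33 genes was 0.211 with length, 0.0515 with level and 0.155 with the neighbours' median. Over 32 genes it was 0.134, 0.153 and 0.074. The genes share both libraries and are not independent replicates, so these are descriptions.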
